A study of Mus musculus with 3 samples.

Results

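The genes described here are those that move zinc across membranes or hold it inside the cell, with the transcription factor that senses it. They are the zinc exporter genes Slc30a1, Slc30a4 and Slc30a5, the importer genes Slc39a4, Slc39a10 and Slc39a14, the metallothionein genes Mt1, Mt2 and Mt3, and Mtf1, which encodes the metal-responsive transcription factor MTF1. These 10 genes were chosen from these data because Slc30a1 was among the lowest genes of the gp130 knockout, and every array probe whose transcript belonged to one of them was taken. That gave 12 of the 39429 non-control probes and 10 of the 20659 named genes, with 1 probe per gene except Mtf1, which had 3. The low Slc30a1 value in the gp130 knockout is therefore the basis of the choice and is given as a description.

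Mouse cells of 3 genotypes, all labelled mESCs (embryonic stem cells), were compared: wildtype, LIFR KO and gp130 KO, with 1 single-colour array of total RNA each. LIFR is the receptor subunit that binds leukaemia inhibitory factor, and gp130, the product of Il6st, is the signalling subunit it shares with other receptors of the interleukin-6 family. All 3 cultures were labelled with the same standard growth conditions, and no agent was named. The sources used here do not give the strain, the way the knockouts were made or the number of clones. With 1 array per genotype there was no replicate, so no difference below has a test, and each describes 3 RNA samples, not 3 genotypes.

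Zinc is taken into the cytosol by transporters of the Slc39a (ZIP) family and is moved out of it, into vesicles or out of the cell, by those of the Slc30a (ZnT) family. Metallothioneins are small cysteine-rich proteins that bind zinc and copper. When free zinc rises, MTF1 binds metal response elements and switches on metallothionein genes and Slc30a1, while a zinc shortage favours importers such as Slc39a4 and Slc39a10. In liver, signalling through gp130 is known to raise metallothioneins and Slc39a14.

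The promoters of Slc30a1, Mt1 and Mt2 are shown because the 3 genes are textbook targets of MTF1, while their array values differed from each other in the knockouts. Each line is a RefSeq window on GRCm38.p6 of 300 bases, from 250 before the transcript start to 50 from it, read on the gene's strand. Capitals mark matches on either strand to the core of the metal response element, spelled TGCACNC or TGCGCNC. All 3 genes lie on the plus strand, Slc30a1 at chr1:191906531-191906830, Mt1 at chr8:94178839-94179138 and Mt2 at chr8:94172368-94172667.
Slc30a1: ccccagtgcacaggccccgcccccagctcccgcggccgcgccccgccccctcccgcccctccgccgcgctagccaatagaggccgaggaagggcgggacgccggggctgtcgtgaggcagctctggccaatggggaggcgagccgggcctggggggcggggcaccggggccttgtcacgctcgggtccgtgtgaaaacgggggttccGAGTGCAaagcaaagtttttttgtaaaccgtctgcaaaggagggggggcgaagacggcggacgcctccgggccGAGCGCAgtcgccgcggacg
Mt1: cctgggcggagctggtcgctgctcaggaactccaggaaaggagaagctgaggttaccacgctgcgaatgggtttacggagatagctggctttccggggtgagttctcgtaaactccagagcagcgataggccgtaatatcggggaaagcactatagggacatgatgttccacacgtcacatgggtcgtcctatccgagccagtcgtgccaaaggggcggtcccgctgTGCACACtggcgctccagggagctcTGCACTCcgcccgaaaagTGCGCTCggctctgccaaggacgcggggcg
Mt2: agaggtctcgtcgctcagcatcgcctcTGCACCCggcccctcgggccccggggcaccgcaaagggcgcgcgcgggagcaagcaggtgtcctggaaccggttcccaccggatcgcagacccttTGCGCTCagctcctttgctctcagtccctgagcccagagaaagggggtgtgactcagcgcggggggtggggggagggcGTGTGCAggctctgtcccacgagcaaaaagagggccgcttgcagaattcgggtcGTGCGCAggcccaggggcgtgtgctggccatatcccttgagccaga

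The Slc30a1 window held 2 cores, both on the opposite strand, at bases -43 to -37 and 31 to 37, where base 1 is the transcript start. The Mt1 window held 3 cores on the gene's own strand, at bases -23 to -17, 3 to 9 and 21 to 27. All but the first lie past the annotated transcript start. Bases outside the windows were not searched, so further cores of these genes would be missed. The Mt2 window held 4, the outermost at bases -223 to -217. Of all 32851 windows in the table, 25.7% held at least 1 core, 7.11% at least 2, 1.97% at least 3 and 0.517% at least 4. Slc30a4 had 3 cores, Slc30a5 and Mt3 had 1 each, and the Mtf1 window and both Slc39a10 windows had none. Slc39a4 and Slc39a14 were not matched in the table, so 8 of the 10 genes gave 9 windows, 6 of them with a core. The member windows with a core were 56.0% to 81.7% G and C, against a median of 52.7% over all windows. A match is a run of letters and not a measured binding site.

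**Figure D1:**
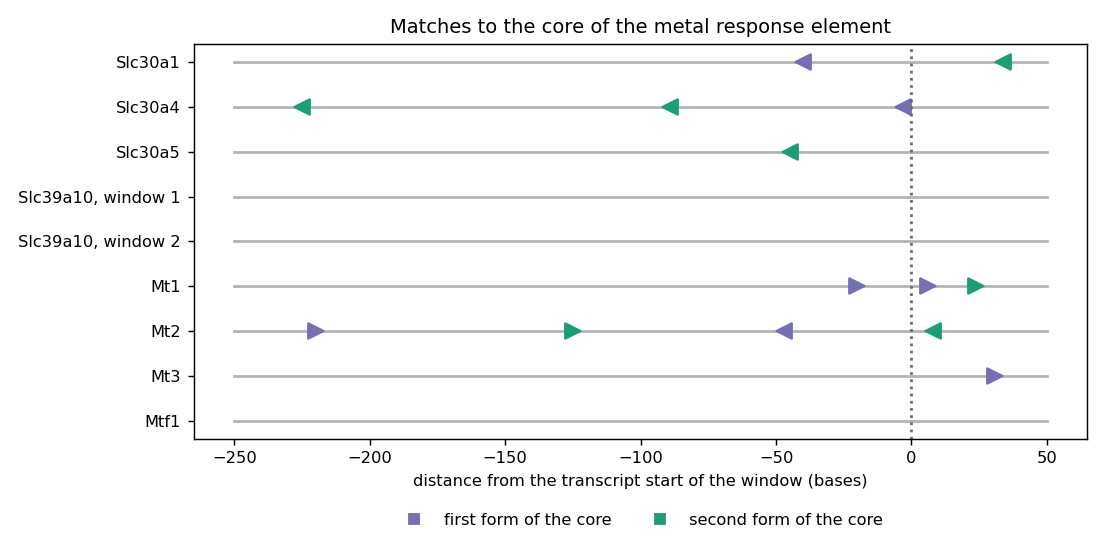
Position of each match to the metal response element core (triangles, pointing right on the gene's strand and left on the opposite strand, coloured by the 2 forms of the core) along each 300-base promoter window (grey lines), in bases from the transcript start (dotted line). Mt2 had 4 matches, Mt1 and Slc30a4 had 3 each, Slc30a1 had 2, and the Slc39a10 and Mtf1 windows had none.

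Of the exporters, Slc30a1 was lower on both knockout arrays and Slc30a4 and Slc30a5 were near their wildtype values. Slc30a1 encodes the exporter of the plasma membrane, which carries zinc out of the cell. Its scaled signal, the processed brightness of the spot brought to the wildtype array's 75th percentile, was 386 ± 38.7 on the wildtype, 149 ± 15.3 on the LIFR KO and 76.5 ± 7.98 on the gp130 KO array. The error is the scanner software's own for a single spot and does not cover differences between cultures. The 3 values did not overlap within these errors, with the wildtype highest and the gp130 KO lowest, and all were well above background.

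On the log2 scale Slc30a1 was -2.33 in the gp130 KO over wildtype (5.04-fold lower), with a scanner error of 0.21, and this ratio is the one the choice of genes used. In the LIFR KO it was -1.37 over wildtype (2.59-fold lower). Both ratios share the wildtype array, so that array's value enters both. The gp130 KO signal was 1.95-fold lower than the LIFR KO signal, a log2 ratio of -0.96, just under the 2-fold used to count genes.

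Ranked from the lowest ratio, Slc30a1 was number 7 of 14082 genes in the gp130 KO over wildtype and number 68 of 13139 in the LIFR KO over wildtype, counting genes with both arrays measured. Between the knockouts it was number 198 of 13168, by a ratio that uses the same gp130 KO spot as the choice of genes. In the gp130 KO ranking Prr36 stood just below it at -2.38 and 1810024B03Rik just above it at -2.29. The probe read 386, 168 and 75.1 in processed signal before scaling, with local backgrounds of 19.5 to 21.5.

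**Figure D2:**
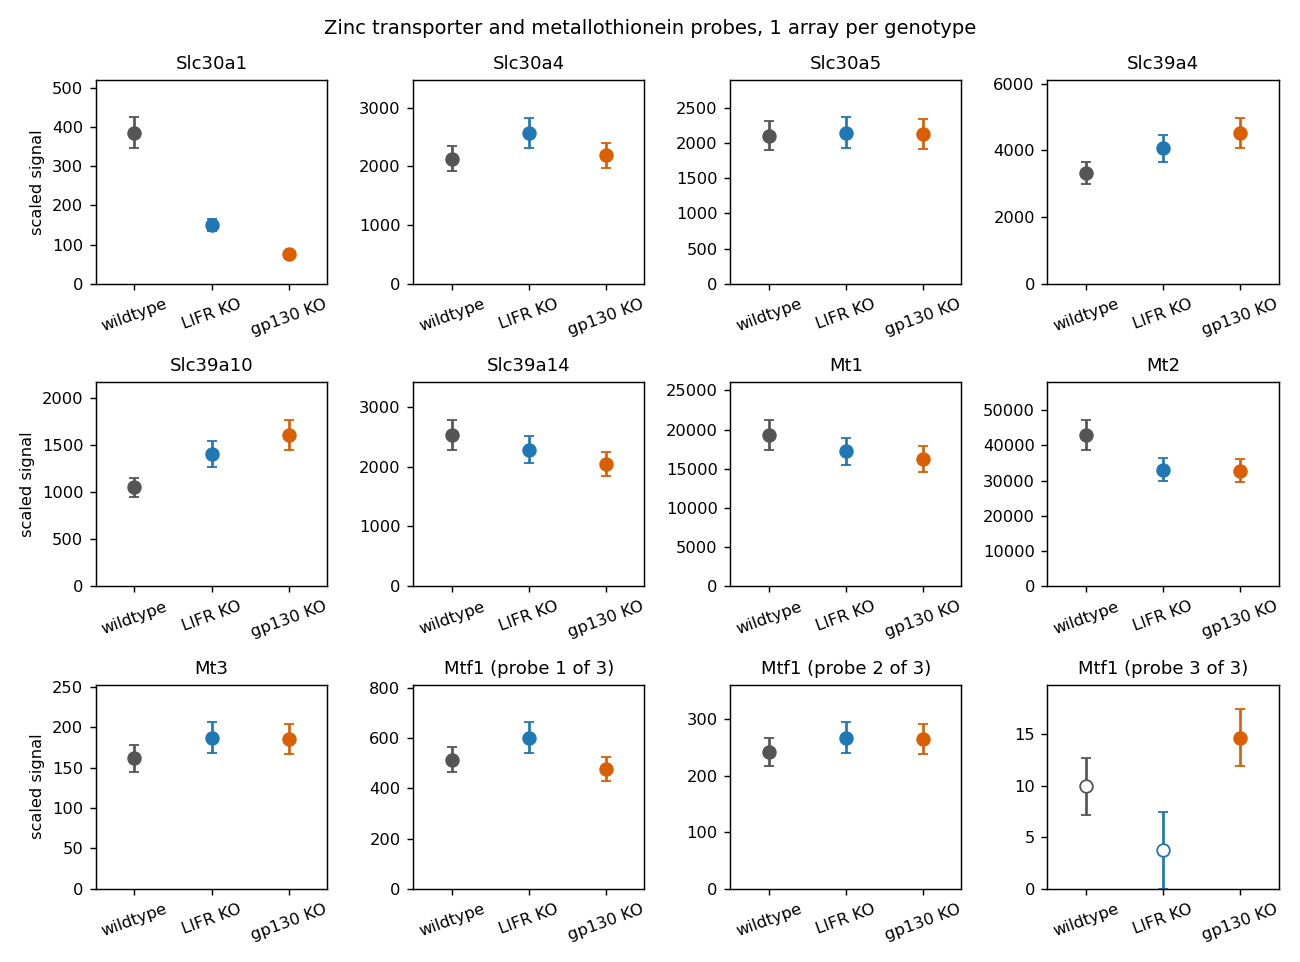
Scaled signal (linear axis from 0, processed brightness brought to the wildtype 75th percentile) of each of the 12 probes on the wildtype, LIFR KO and gp130 KO arrays, with bars for the scanner software's error of 1 spot; open circles are not well above background. Slc30a1 reads 386, 149 and 76.5, while the other measured probes stay within 1.53-fold across the 3 arrays.

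Slc30a4 encodes an exporter that loads zinc into vesicles and, in mammary gland, into milk. Its scaled signal was 2136 in wildtype, 2577 in the LIFR KO and 2189 in the gp130 KO. The LIFR KO value was highest, at a log2 ratio of 0.27 over wildtype, and the gp130 KO ratio was 0.04. Both ratios lay within 1.96 times the scanner error, about 0.40, which is used below as a limit to sort ratios. That limit rests on the scanner software's own error and not on the observed spread of repeated spots. The median standard deviation of repeated spots within an array was 0.0538, 0.0498 and 0.0544 on the wildtype, LIFR KO and gp130 KO arrays. Values with a ratio within the limit are therefore not shown to be equal. Whether a ratio near that limit passed it depended on the processing, and here the LIFR KO ratio was 0.44 under median scaling and -0.07 under the normexp background correction over all spots.

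Slc30a5 encodes a transporter of the early secretory pathway that supplies zinc to enzymes there. Its scaled signal was 2104, 2146 and 2123 on the wildtype, LIFR KO and gp130 KO arrays. The 3 values lay within 1.02-fold of each other, the narrowest range of the 10 genes. The sign of its 2 ratios to wildtype turned under other scalings and has no meaning at this size.

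The importers did not move as a group. Slc39a10, an importer of the plasma membrane, was higher on both knockout arrays. Its scaled signal was 1049 ± 105 on the wildtype, 1402 ± 140 on the LIFR KO and 1605 ± 161 on the gp130 KO array. The log2 ratios over wildtype were 0.42 (1.34-fold) in the LIFR KO and 0.61 (1.53-fold) in the gp130 KO, both beyond the scanner error's limit, and the gp130 KO ratio ranked 13770 from the lowest of 14082 genes. The LIFR KO ratio fell short of the limit under 4 alternatives, at 0.39 with quantile normalisation, 0.38 in the authors' values, 0.39 with normexp fitted without stray signal and 0.13 with normexp over all spots. After Slc30a1 this was the widest range among the 10 genes.

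Slc39a4 encodes the importer of the gut surface whose loss causes the zinc deficiency acrodermatitis enteropathica. Its scaled signal was 3328 on the wildtype, 4065 on the LIFR KO and 4528 on the gp130 KO array. The wildtype was lowest, and the ratio was beyond the scanner limit in the gp130 KO (log2 0.44, 1.36-fold higher) but not in the LIFR KO (log2 0.29, 1.22-fold higher). The LIFR KO ratio was 0.46 under median scaling and -0.16 under normexp over all spots, and the gp130 KO ratio came down to the limit, 0.40, with quantile normalisation and in the authors' values.

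Slc39a14 encodes an importer of zinc, iron and manganese. Its scaled signal was 2528 on the wildtype, 2286 on the LIFR KO and 2042 on the gp130 KO array. The order was the reverse of that of the other 2 importers, with the wildtype highest. The log2 ratio was -0.15 in the LIFR KO and -0.31 (1.24-fold lower) in the gp130 KO, both within the scanner limit, and the LIFR KO ratio became 0.02 under median scaling and -0.48 under normexp over all spots.

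Both ubiquitous metallothioneins were at most 1.31-fold lower on the knockout arrays in the reported processing. Mt1 gave a scaled signal of 19292 ± 1930 in wildtype, 17211 ± 1720 on the LIFR KO and 16235 ± 1620 on the gp130 KO array. Its log2 ratio was -0.16 (1.12-fold lower) in the LIFR KO and -0.25 (1.19-fold lower) in the gp130 KO. The scanner errors of neighbouring arrays overlapped, and the LIFR KO ratio was 0.00 under median scaling and -0.64 under normexp over all spots.

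Mt2 gave a scaled signal of 42940 ± 4290 in wildtype, 33108 ± 3310 on the LIFR KO and 32803 ± 3280 on the gp130 KO array. The wildtype stood above both knockouts, which lay side by side. The log2 ratios of -0.38 (1.30-fold lower) and -0.39 (1.31-fold lower) were both within the scanner limit of 0.40. Under 4 alternatives the gp130 KO ratio passed it, at -0.47 with quantile normalisation and in the authors' values, -0.43 with normexp over all spots and -0.44 with it fitted without stray signal. In the LIFR KO normexp over all spots gave -0.88 (1.84-fold lower). No spot of either gene was saturated on any array.

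Mt3 encodes the metallothionein best known from brain. Its scaled signal was 162 on the wildtype, 187 on the LIFR KO and 186 on the gp130 KO array, well above background on each. The log2 ratios over wildtype were 0.21 (1.16-fold higher) and 0.20 (1.15-fold higher), opposite in sign to those of Mt1 and Mt2 and within the scanner limit. Normexp over all spots gave 0.92 (1.89-fold higher) in the LIFR KO, and fitted without stray signal 0.12. Mt1, Mt2 and Mt3 are neighbours on chromosome 8. Cross-hybridisation between the metallothionein probes was not tested.

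Mtf1, the zinc sensor, was read by 3 probes. The brightest gave a scaled signal of 516 in wildtype, 603 on the LIFR KO and 476 on the gp130 KO array, with log2 ratios of 0.23 and -0.12 over wildtype. The next gave 242, 268 and 265, with ratios of 0.15 and 0.13, so the 2 probes differed in the sign of the gp130 KO ratio. All 4 ratios were within the scanner limit. The last probe gave 9.92, 3.71 and 14.6 and was well above background on the gp130 KO array alone, which makes its gp130 KO signal at least 1.395-fold higher than wildtype, a bound against the dimmest measured wildtype signal of 10.5.

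Counted together, 1 of the 10 genes was at least 2-fold lower in the gp130 KO over wildtype, where 0.785% of the 14903 genes compared were, and none was at least 2-fold higher, where 0.98% were. In the LIFR KO over wildtype 1 of 10 was lower, against 1.62% of 14551 genes, and none was higher, against 2.62%. Between the knockouts none was 2-fold lower in the gp130 KO, against 2.05% of 14765 genes, or higher, against 1.29%. The 1 gene is Slc30a1 each time. Since it decided the choice of genes, nothing is read from its share.

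The other 9 genes ran from -0.38 (Mt2) to 0.42 (Slc39a10) in the LIFR KO and from -0.39 (Mt2) to 0.61 (Slc39a10) in the gp130 KO over wildtype. The median log2 ratio of the 10 genes was 0.12 in the LIFR KO and -0.05 in the gp130 KO, beside -0.03 and 0.03 over all genes compared. Without Slc30a1, which decided the choice of genes, the median of the other 9 was 0.21 and 0.01. The highest signal over the lowest was 5.04-fold for Slc30a1 and 1.02-fold to 1.53-fold for the other 9. Over the 13121 genes measured on all 3 arrays this range had a median of 1.22-fold and a 90th percentile of 1.65-fold. The other 9 genes therefore had ranges below that 90th percentile, and Slc30a1 lay above it.

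**Figure D3:**
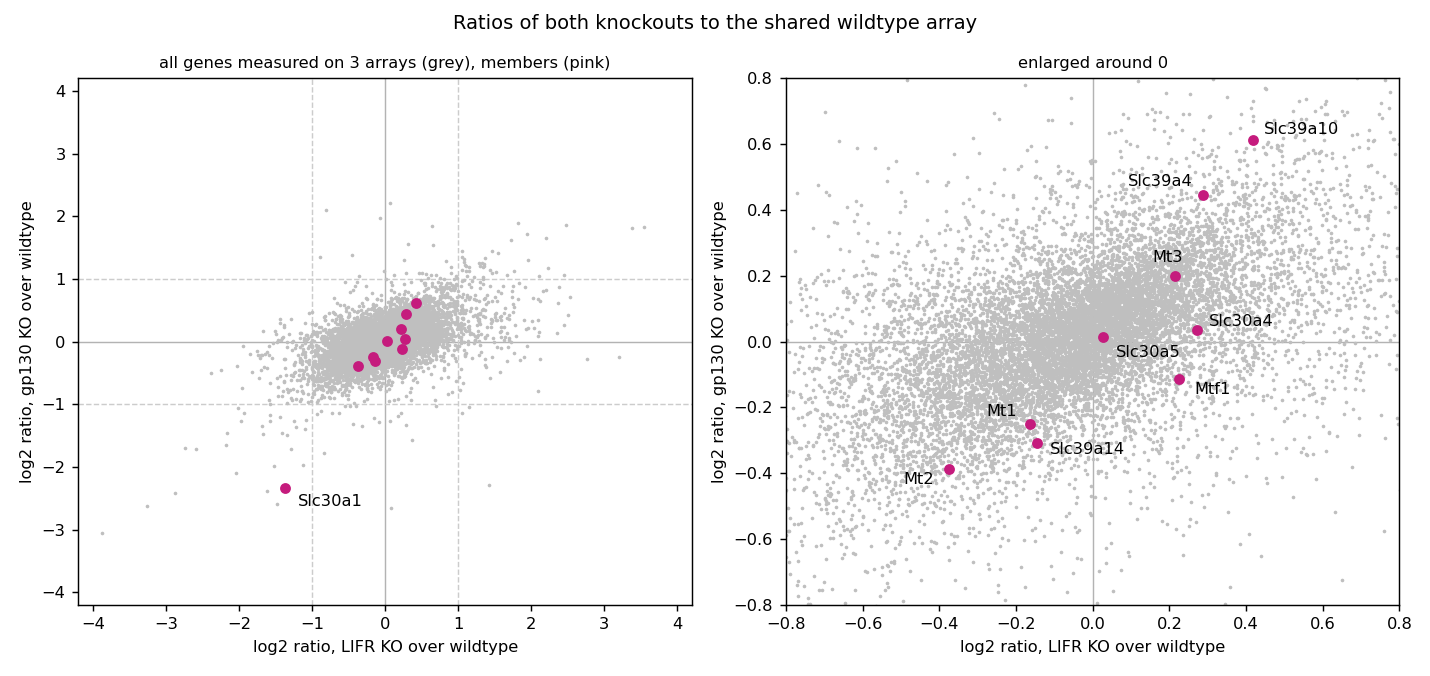
Log2 ratio to wildtype in the LIFR KO (horizontal) and the gp130 KO (vertical) of each gene measured on 3 arrays (grey) and of the 10 genes (pink), whole and enlarged around 0; dashed lines mark 2-fold, and both axes share the wildtype array. Slc30a1 lies at -1.37 and -2.33, and the other 9 lie inside the grey cloud, Slc39a10 furthest to the upper right at 0.42 and 0.61.

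The array named 10 Slc30a genes, 7 of which were compared, and Slc30a1 was the 1 past 2-fold in each knockout. Over all genes compared in the LIFR KO, 1.62% were at least 2-fold lower and 2.62% higher. In the gp130 KO these shares were 0.785% and 0.98%. No second exporter past 2-fold is near such shares, and Slc30a1 decided the choice of genes, so nothing is read from the count. Among the 7 outside the chosen genes, Slc30a3, Slc30a8 and Slc30a10 were flagged not well above background on all 3 arrays. The 4 that were measured had log2 ratios of -0.43 to -0.15 in the LIFR KO and -0.40 to -0.08 in the gp130 KO.

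Slc30a2, an exporter into vesicles, gave a scaled signal of 3452, 2554 and 3053 in wildtype, LIFR KO and gp130 KO. Its LIFR KO ratio of -0.43 was beyond the scanner limit, as were those of Slc30a6 (-0.43) and Slc30a7 (-0.40), both transporters of the secretory pathway. Under median scaling these 3 ratios were -0.27, -0.27 and -0.23, all inside the limit, and normexp over all spots turned that of Slc30a6 to 0.61. Slc30a9 gave 1221, 1100 and 1158, within the scanner limit. Its LIFR KO ratio of -0.15 became 0.02 under median scaling. In the reported processing none of the 4 was beyond the scanner limit in the gp130 KO.

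Of 14 importer genes on the array, 11 were compared, with a median log2 ratio of 0.08 in the LIFR KO and 0.07 in the gp130 KO. None was past 2-fold in either knockout, near the shares of all genes given above, so nothing is read from that count. Slc39a1, a widely expressed plasma membrane importer, gave a scaled signal of 10227, 10118 and 10086 in wildtype, LIFR KO and gp130 KO. Slc39a7, which releases zinc from the endoplasmic reticulum, gave 4095, 5291 and 4203, highest in the LIFR KO at a log2 ratio of 0.37. That ratio was within the scanner limit and was -0.09 under normexp over all spots. Slc39a3, outside the chosen genes, had the highest gp130 KO ratio of the 11 importers, 0.64, beyond the scanner limit and beside 0.61 for Slc39a10. Slc39a5, Slc39a9 and Slc39a12 were likewise not well above background on all 3.

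Of 9 other genes that MTF1 is reported to control, 8 were compared, and none was past 2-fold in either knockout over wildtype. Over all genes compared in the LIFR KO, 1.62% were at least 2-fold lower and 2.62% higher. In the gp130 KO these shares were 0.785% and 0.98%. None among 8 is near such shares, so nothing is read from that count. The median log2 ratio of the 8 was -0.04 in each knockout over wildtype. Csrp1, which encodes a cysteine-rich LIM-domain protein, gave a scaled signal of 13626 in wildtype, 14764 on the LIFR KO and 13148 on the gp130 KO array. Ndrg1, a stress response gene, gave 9594, 10464 and 9440. In both the 3 values lay within the scanner errors of each other. Others of the list were beyond the scanner limit, in opposite directions. Gclc, a subunit of the enzyme that starts glutathione synthesis, gave 1289, 1962 and 1757, at log2 ratios of 0.61 (1.52-fold higher) and 0.45 (1.36-fold higher), which came down to 0.23 and 0.39 at the lowest under the alternatives. Pgf, a placental growth factor gene, gave 130, 107 and 95.1, and its gp130 KO ratio of -0.45 was beyond the limit but was -0.24 under normexp over all spots. Both were named after their values were seen.

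The 10 genes of oxidative and metal stress were all measured, with medians of 0.09 in the LIFR KO and 0.13 in the gp130 KO. None was past 2-fold in either knockout, near the shares of all genes given above. Gsr, glutathione reductase, gave a scaled signal of 10588, 12570 and 13676 in wildtype, LIFR KO and gp130 KO. Txnrd1, thioredoxin reductase, gave 10292, 11239 and 10191. Slc7a11, named after its values were seen, gave 77.1, 49.2 and 51.9. Its log2 ratios of -0.65 (1.57-fold lower) and -0.57 (1.49-fold lower) were beyond the scanner limit, and no other ratio of the list to wildtype was. Under normexp over all spots they were 1.08 and -0.28.

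The 9 copper-handling genes had a median log2 ratio of 0.10 in each knockout. None was past 2-fold, near the shares of all genes given above. Sod1, the copper and zinc superoxide dismutase, gave a scaled signal of 34356, 34614 and 37383. Atox1, a copper chaperone, gave 9525, 11784 and 10051, highest in the LIFR KO at a log2 ratio of 0.31. That ratio was within the scanner limit and was -0.21 under normexp over all spots.

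Of 10 iron and manganese genes, 8 were compared in the LIFR KO and 9 in the gp130 KO, with medians of 0.05 and 0.15. None was past 2-fold, near the shares of all genes given above. Fth1 and Ftl1, the ferritin subunits, gave scaled signals of 121990, 121160 and 135810 and of 89243, 95176 and 106250 on the wildtype, LIFR KO and gp130 KO arrays. Slc40a1, the iron exporter ferroportin, gave 106 ± 10.9, 204 ± 20.6 and 213 ± 21.4. Both knockout values stood above wildtype, by 1.915-fold and 1.999-fold, the latter just under 2-fold. It passed 2-fold in 3 of 12 other ways of processing in the LIFR KO and 4 of 12 in the gp130 KO, and it is named here after its values were seen.

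Glucocorticoids are known to raise metallothioneins, so genes of that response were counted too. Of 9 genes, 8 were compared, with medians of -0.01 and 0.04. Past 2-fold was 1, higher in the LIFR KO, where 2.62% of all genes compared were. Per1, a clock gene that glucocorticoids induce, gave a scaled signal of 938 in wildtype, 6347 on the LIFR KO and 772 on the gp130 KO array. It was 6.77-fold higher in the LIFR KO and within the scanner limit in the gp130 KO, at a log2 ratio of -0.28. Other genes of the list were beyond the scanner limit, in opposite directions. In the LIFR KO these were Klf9 (0.57) and Tsc22d3 (-0.48), and in the gp130 KO Zbtb16 (0.53) and Errfi1 (-0.48). They were named after their values were seen.

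**Figure D4:**
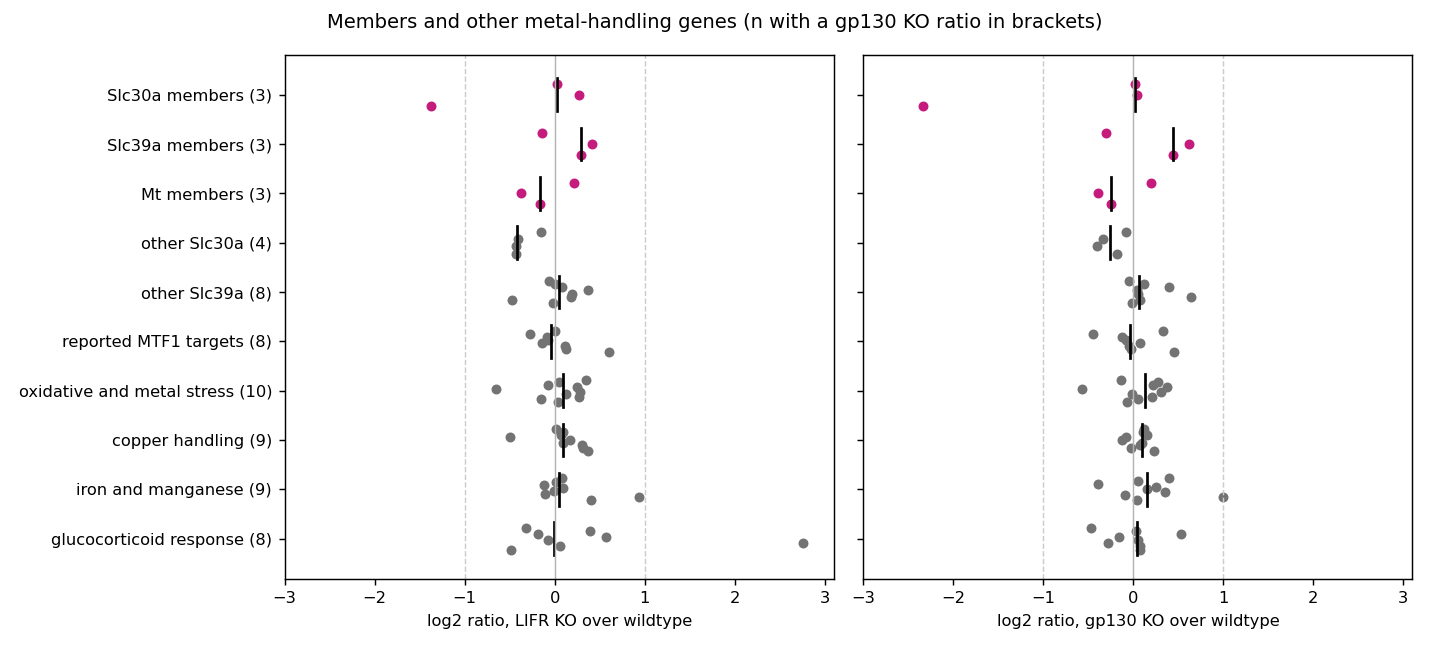
Log2 ratio of each gene (points) in the LIFR KO (left) and the gp130 KO (right) over wildtype, for the chosen genes (pink) and the other lists of metal-handling or hormone-responsive genes (grey), with the median of each list as a black bar and dashed lines at 2-fold. Slc30a1 in both panels and Per1 in the LIFR KO, at 2.76, are the points past 2-fold, and Slc40a1 lies on the line in the gp130 KO.

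The genes with the most similar pair of ratios to Slc30a1 were sought among 13120 genes measured on 3 arrays, by the distance between the 2 log2 ratios to wildtype. The 5 nearest were Prr36, Rgs16, Il1a, Nppb and Fst, at distances of 0.25, 0.27, 0.37, 0.44 and 0.62. Rgs16, a regulator of G-protein signalling, gave a scaled signal of 2796 ± 280 in wildtype, 1006 ± 101 on the LIFR KO and 466 ± 46.6 on the gp130 KO array. Il1a, an interleukin, gave 1357, 474 and 341, and Nppb, a natriuretic peptide, gave 427, 196 and 109. Prr36 gave 86.4, 28.2 and 16.6, and Fst, which encodes the activin antagonist follistatin, gave 665, 272 and 203. In all 5, as in Slc30a1, the wildtype was highest and the gp130 KO lowest. This order is what the search asked for.

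The LIFR KO array stood apart from the others. It had 58.3% of probes well above background, against 64.3% on the wildtype and 65.5% on the gp130 KO array, a lowest such signal of 16.7 against 10.5 and 9.66, and 222 outlier spots against 97 and 138. No array had a saturated spot. The LIFR KO array alone had local backgrounds far above the others, up to 25884 against 57 and 51, in 153 spots, none of them a spot of the 12 probes, whose backgrounds were 17.0 to 40.0. The probes for the deleted genes did not separate the genotypes. Il6st gave a scaled signal of 329, 327 and 305 in wildtype, LIFR KO and gp130 KO, and the 1 of 3 Lifr probes well above background gave 34.9, 26.5 and 35.4. The sources used here do not say whether these probes lie in the deleted parts, so they check nothing.

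The labelled cell type was set against its markers. Of 8 embryonic stem cell markers, Pou5f1, Nanog, Esrrb, Tdgf1 and Lin28a were flagged well above background on each array, and Sox2, Zfp42 and Dppa3 on none. Pou5f1 was dim, with scaled signals of 31.2, 20.1 and 20.7 on the wildtype, LIFR KO and gp130 KO arrays. Its LIFR KO processed signal was 22.7, where the lowest signal well above background was 16.7. Esrrb gave 50.3, 37.8 and 49.9. The summed scaled signals of the stem cell markers, mostly from Lin28a, Tdgf1 and Nanog, were 1633, 1284 and 1729 on the wildtype, LIFR KO and gp130 KO arrays. All 7 epithelial markers (Cdh1, Epcam, Krt8, Krt18, Krt19, Cldn4 and Cldn7) were well above background on all 3, with sums of 60610, 68020 and 65400. Of 6 fibroblast markers 4 were, with sums of 73400, 78310 and 85600, nearly all of it Vim. Single markers were past 2-fold on the LIFR KO array. The fibroblast gene Col1a1 gave 70.4, 228 and 94.7 (3.23-fold higher in the LIFR KO), the epithelial gene Cldn4 gave 130, 285 and 153 (2.20-fold higher), and the glial gene Gfap was at least 2.63-fold lower there. Of 6 neuronal and glial markers 3 were well above background on all 3 arrays, of 4 hepatocyte markers 1 was (Afp), and of 3 erythroid markers on the array 1 was. The fibroblast sum was lowest in wildtype and highest in the gp130 KO. This is the reverse of the order of Slc30a1 and the order of Slc39a10 and Slc39a4. It is the order of Vim, which was 1.165-fold higher in the gp130 KO than in wildtype, within the scanner limit. Among the other fibroblast markers Pdgfra shared it, Col1a1 was highest in the LIFR KO, and Col1a2, Col3a1 and Thy1 were lowest there. In the other 5 lists the LIFR KO sum was the highest or the lowest of the 3. In bulk RNA fewer cells of a type and less RNA per cell cannot be told apart. The part of these markers in the zinc genes' values was not tested.

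The ratios were also computed under 12 other ways of processing. Slc30a1 stayed at least 2-fold lower in the gp130 KO over wildtype under all 12, from -2.35 to -1.58, and in the LIFR KO under 11, the exception being the normexp background correction over all spots, at -0.21. With that correction fitted without the stray signal of the LIFR KO array, it was -1.08. Between the knockouts it passed 2-fold in 4 of the 12, from -1.37 to -0.51. None of the 27 ratios of the other 9 genes passed 2-fold under any of the 12.

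**Figure D5:**
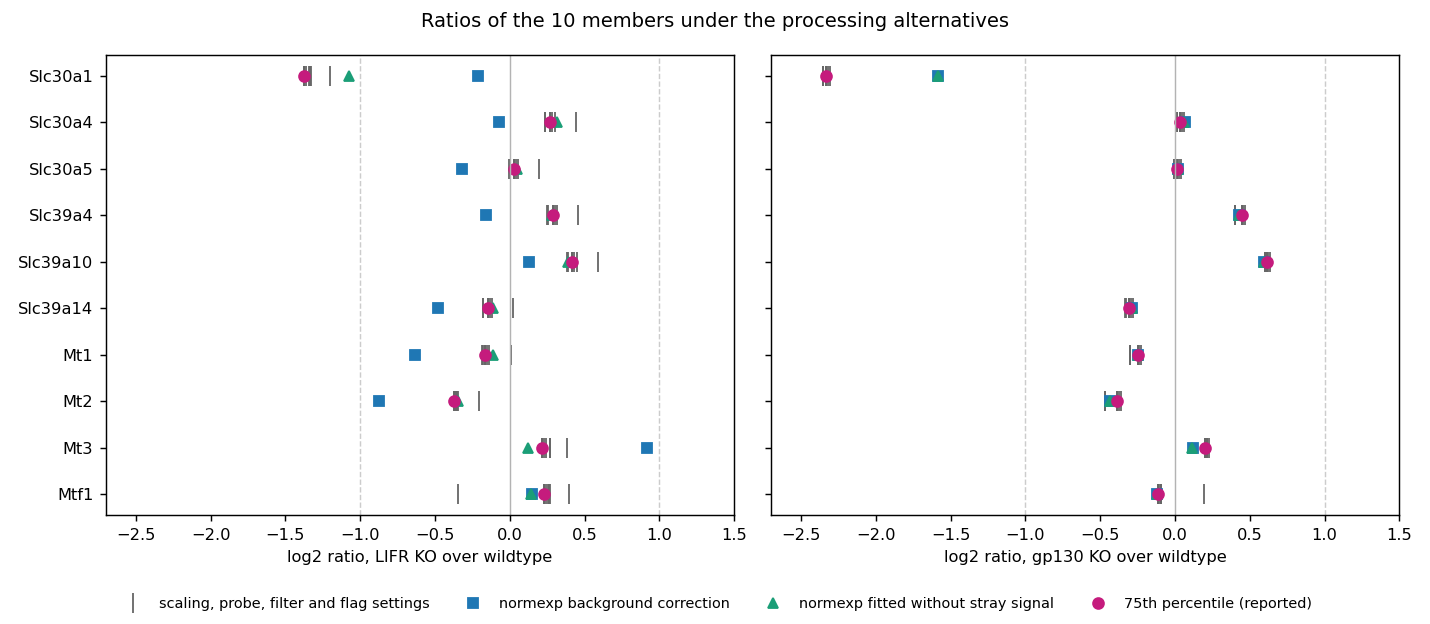
Log2 ratios to wildtype of the 10 genes in the LIFR KO (left) and gp130 KO (right) under the reported processing (pink circles), the normexp background correction over all spots (blue squares) or without stray signal (green triangles), and the other settings (grey ticks); dashed lines mark 2-fold. In the LIFR KO the blue squares stand apart, Slc30a1 at -0.21 against the reported -1.37, and in the gp130 KO Slc30a1 stays below the 2-fold line throughout.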

How the data were processed

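Spots were read as deposited intensity, the processed signal, which per the file headers is background-subtracted and detrended, with no normalisation between arrays. The other deposited flags (0 or 1), per the file headers, mark spots well above background, outliers and saturated spots, and the deposited spot and local background intensity served the normexp alternative. Headers give Feature Extraction 11.0.1.1, protocol GE1_1100_Jul11 and design 026655 on mm9, and the submitters' notes on processing give version 9.1 of it. The authors' deposited series matrix holds log2 values, a scale found by comparison with the processed signal (r = 0.996, 0.999 and 0.995). Its column medians were all 5.39, so the arrays were normalised to each other, by a method not given in the sources used here.

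Outlier spots were left out, spots of a probe averaged, and the log2 processed signal taken minus the array's 75th percentile (664, 750 and 652). Accessions were matched without versions to RefSeq GRCm38.p6, which named 27234 of 39429 probes, and a gene was read from its brightest probe. A gene was compared when well above background on at least 1 of 2 arrays, and a dim value was replaced by the higher of itself and the lowest signal well above background (10.5, 16.7 and 9.66), giving a bound. The error of a ratio combines the software's errors of both spots, and 1.96 times it is the limit quoted. All 3 arrays share 1 scan. With 1 array per genotype no test was made. The script was tested on simulated data.

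The members, lists, markers and the rule for named genes were chosen with earlier results of these data known. By that rule the text names every member probe, list genes past 2-fold in either knockout or else the 2 brightest of the list, the 5 genes nearest to Slc30a1, its neighbours by rank, and the markers. Slc30a6, Slc30a7, Slc39a3, Slc40a1, Gclc, Pgf, Slc7a11, Klf9, Tsc22d3, Zbtb16, Errfi1 and the genes listed as not well above background were named after their values were seen. A comparison of the metallothionein proteins was planned and is not analysed here. Alternatives were normexp (limma 3.58.1, R 4.3.3, offset 50), other scalings, filters and probe rules. Python 3.11.15 with numpy 2.4.6 and pandas 2.3.3 was used.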

Additional observations from a re-analysis of the deposited data

How the results depend on the processing

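With 1 array per genotype, no replicate could be left out, and the 12 alternatives (10 planned and 2 chosen after seeing the data) change the processing of the same 3 arrays. No paired analysis was possible because each genotype has 1 array. Of 324 values of the 27 other member ratios, 305 stayed within 1 scanner error of the reported value, 19 moved further, 16 of them under normexp and 3 (Mtf1) with the mean of a gene's probes, and 16 values changed sign. Slc30a1 under normexp was -0.21 in the LIFR KO over wildtype, -1.58 in the gp130 KO over wildtype and -1.37 between the knockouts, and with normexp fitted without stray signal -1.08, -1.58 and -0.51. The cause was not tested.

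Counts of genes at least 2-fold higher and lower in the LIFR KO over wildtype, reported as 381 and 236, were 3315 and 96 under normexp, 113 and 64 with it fitted without stray signal, and 650 and 1018 without a filter on dim probes. The higher count was 253 with both arrays well above background, and the lower was 147 under median scaling and 515 with any spot well above background. In the gp130 KO over wildtype, 146 and 117 became 10 and 33 under either normexp, 655 and 594 with no filter, 78 and 66 with both arrays well above, and 286 and 187 with any spot. Between the knockouts, 191 and 303 became 49 and 3260 under normexp, 37 and 79 without stray signal, 969 and 566 with no filter and 124 and 184 with both arrays well above, and the higher count was 551 with any spot. The higher share of calls in the LIFR KO over wildtype was 61.8%, against 78.6% under median scaling and 71.7% under quantile normalisation or in the authors' values. Between the knockouts it was 38.7%, against 25.5%, 29.1% and 29.7%. Median scaling moved the median of all genes in the LIFR KO over wildtype from -0.03 to 0.14, and Slc30a1 relative to that median was -1.35 under both. Dim probes near the lowest signals well above background (10.5, 16.7 and 9.66) limit the third Mtf1 probe.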

Other observations

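Slc30a1 was also set among all solute carrier genes, a family of membrane transporters, in a count written after the data were seen. Of 358 such genes on the array, 248 were compared in the gp130 KO over wildtype. At least 2-fold lower were 2 (0.806%), near the 0.785% of all genes compared. The 2 were Slc30a1, which decided the choice of genes, and Slc16a12, a monocarboxylate transporter family gene. Slc16a12 had a scaled signal of 158 in wildtype, 167 in the LIFR KO and 25.0 in the gp130 KO. Slc16a12 was 6.30-fold lower in the gp130 KO, and its LIFR KO value stood beside wildtype, unlike that of Slc30a1. At least 2-fold higher were 5 (2.02%, beside 0.98% of all genes compared): Slc7a3, Slc23a3, Slco4a1, Slc25a48 and, as a bound, Slc6a14.

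In the LIFR KO over wildtype 243 were compared. At least 2-fold lower were 3 (1.23%, beside 1.62% of all genes compared), Slc26a1 (3.02-fold), Slc30a1 (2.59-fold) and Slc26a10 (2.02-fold). At least 2-fold higher were 10 (4.12%, beside 2.62% of all genes compared). Among them was Slc8a1, the sodium and calcium exchanger gene, at 5.13-fold. The values of 2 of these 10, Slc13a1 (at least 3.56-fold) and Slc12a1 (at least 3.75-fold), are lower bounds, so the 10 have no settled order. Slco4a1, an organic anion transporter gene, gave 188, 414 and 408 on the wildtype, LIFR KO and gp130 KO arrays, high on both knockout arrays where Slc30a1 was low. Slc7a3, a cationic amino acid transporter gene, gave 31.4, 66.7 and 75.7. Both ratios share the wildtype array.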
